A study of Homo sapiens with 6 samples.

Results

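The genes described here are those of the unfolded protein response and of its ATF4 branch, the integrated stress response. They were chosen as a list of 47 gene symbols, and for each gene the probe set with the highest mean over the 6 arrays was taken. Of these, 31 had a probe set with a gene name, 28 under the listed symbol and 3 (the tRNA synthetase genes WARS1, GARS1 and AARS1) through an older symbol, out of 14884 named genes in all. The remaining 16, among them the endoplasmic reticulum (ER) chaperone genes HSPA5 and HSP90B1 and the ATF4 target gene CHAC1, were not analysed here. The 31 genes were split by role into 6 sensors and switches, 18 targets of ATF4 (7 stress regulators and 11 genes of amino acid metabolism) and 7 genes of ER chaperones and ER-associated degradation.

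RNA came from HCT116, an established human colorectal carcinoma cell line, which the growth protocol names so and the sample titles spell HTC116, and was hybridised to whole-transcript arrays. One group of 3 arrays was labelled as HCT116 cells stably overexpressing miR-196b, though its sample titles do not spell the microRNA that way. This group was set against 3 arrays of HCT116 cells stably transduced with an empty vector. Both groups had therefore been transduced and both were grown in a McCoy's medium listed as lacking L-glutamine, with serum and antibiotics. The arrays of a group are labelled as biological replicates, and separate transductions are not mentioned. The p-values therefore cover the spread between 3 cultures of each kind. Values are log2 signals, differences are the arrays labelled miR-196b minus the empty-vector arrays, and the number of arrays limits the precision.

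When unfolded proteins gather in the ER, IRE1 (gene ERN1), PERK (EIF2AK3) and ATF6 signal from its membrane. IRE1 splices the mRNA of XBP1, ATF6 is cut to release a transcription factor, and PERK phosphorylates the initiation factor eIF2alpha. Phosphorylated eIF2alpha lowers translation in general and favours translation of ATF4. GCN2 (EIF2AK4), which senses uncharged tRNA, reaches ATF4 by the same phosphorylation without any ER stress. XBP1 and ATF6 act mainly on chaperone and degradation genes, and ATF4 acts on genes of amino acid supply, tRNA charging and stress-induced arrest. Much of this control is on splicing, cleavage, phosphorylation and translation, which a probe set level does not read.

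The microRNA of the labels and its closest relative are shown because the array reads their precursor genes. The capitals mark the seed, bases 2 to 8, which is the same in both, and the mature forms differ at 1 of 22 bases (RefSeq, GRCh38.p14, MIR196B at chr7:27169528-27169549, minus strand, and MIR196A2 at chr12:53991762-53991783, plus strand).
hsa-miR-196b-5p: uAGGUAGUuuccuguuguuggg
hsa-miR-196a-5p: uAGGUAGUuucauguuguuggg

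The probe set of MIR196B was at 8.21, 7.93 and 8.01 in the arrays labelled miR-196b (replicates 1, 2 and 3), against 8.09, 7.91 and 7.91 in the empty-vector arrays, and the groups overlapped. The MIR196A2 probe set was at 10.61, 10.47 and 10.76 in the labelled arrays, against 3.09, 3.21 and 2.88 in the empty-vector arrays (limma adjusted p = 4.53e-07). The probe set of the gene that the labels name was thus not shown to differ, and the arrays are called by their label throughout. GALNT5 and HOXB7, the genes of the series title, had log2 changes of -1.09 (limma adjusted p = 0.0233) and -0.64 (limma adjusted p = 0.0974). A principal component analysis of the named probe sets put the groups apart on the first component (28.9% of the variance). On the second (19.7%) the labelled replicates 1 (18.4) and 3 (-12.9) stood at opposite ends, with the other 4 arrays between -3.49 and -0.0346. Of 9 colon epithelial markers, 7 were measured. EPCAM, KRT18 and KRT19 had brightness percentiles of 97.0 to 98.7 among all probe sets, KRT8 stood at 77.6 and CDX2 at 70.7, and VIL1 (47.0) and CEACAM5 (29.2) lay in the dimmer part. KRT18 and CDX2 were lower in all 3 labelled arrays than in any empty-vector array, with log2 changes of -0.22 and -0.26 (limma adjusted p = 0.405 and 0.481), which is 28.6% of the list, against 7.24% of all genes. A further, dimmer probe set of KRT18 (percentile 84.0) had overlapping groups and a log2 change of -0.10 (limma adjusted p = 0.699). The place of KRT18 in that share thus rests on its brighter probe set. Of 7 fibroblast markers, 3 were measured, with brightness percentiles of 8.74 (LUM), 13.8 (DCN) and 59.1 (THY1). Of 6 blood cell markers, 2 were measured, CD68 at 85.2 and CSF1R at 46.9. LUM and CSF1R were higher in all 3 labelled arrays, with log2 changes of 0.18 and 0.31 (limma adjusted p = 0.545 and 0.476). That is 1 of 3 fibroblast and 1 of 2 blood cell markers, where 10.3% of all genes were so separated. The gap between the groups was 0.012 for LUM, a dim probe set, and 0.036 for CSF1R. The part of these markers in the results below was not tested.

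Promoter sequence was examined, and elements named for ER stress were found in most of the 7 measured ER chaperone and degradation genes. The members were chosen as genes of these pathways, and the elements are named for the same pathways. The shares below are therefore not independent of the choice of members. The ER stress response element (ERSE) was searched as CCAAT, any 9 bases and CCACG, and the second element (ERSE-II) as ATTGG, any 1 base and CCACG, on both strands, in the 250 bases before and 50 bases after each gene's start. One or the other stood in 5 of 7 promoters of this list, in 1 of 6 of the sensors and switches, and in 0 of the 16 ATF4 target promoters in the table, against 0.136% of all 27305 promoters of the same length. The core of the element bound by ATF4 with C/EBP partners, searched as TGATGNAA, stood in 3 of 16 ATF4 target promoters and in 0 of the 13 others, against 3.67% of all promoters. The element TGACGTGG, linked to XBP1, stood in the HYOU1 promoter alone among the 29 member promoters (0.795% of all promoters), where it overlaps an ERSE-II. A match is a description of the letters in this window and not a shown binding site.

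The matches before the gene start are shown with up to 60 bases on each side, cut at the gene start and at the far end of the 250 bases searched, 5′ to 3′ on the strand of the gene, with the fixed letters of each element in capitals (RefSeq, GRCh38.p14). The first 6 hold an ERSE or ERSE-II, and the last 3 the ATF4 core. The windows are XBP1 at chr22:28800570-28800681 (minus strand), CALR at chr19:12938359-12938462 (plus), CANX at chr5:179698718-179698856 (plus), CRELD2 at chr22:49918494-49918632 (plus), SDF2L1 at chr22:21642054-21642184 (plus), HYOU1 at chr11:119057214-119057453 (minus), ATF3 at chr1:212565157-212565283 (plus), ASNS at chr7:97872409-97872536 (minus) and AARS1 at chr16:70289626-70289753 (minus).
XBP1: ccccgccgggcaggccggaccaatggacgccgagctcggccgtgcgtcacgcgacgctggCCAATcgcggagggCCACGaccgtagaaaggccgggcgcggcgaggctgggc
CALR: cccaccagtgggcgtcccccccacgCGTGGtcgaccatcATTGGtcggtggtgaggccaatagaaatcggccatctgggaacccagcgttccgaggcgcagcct
CANX: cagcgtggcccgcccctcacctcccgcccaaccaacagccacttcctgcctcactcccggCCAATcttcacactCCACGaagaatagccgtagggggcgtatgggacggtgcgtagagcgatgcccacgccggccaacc
CRELD2: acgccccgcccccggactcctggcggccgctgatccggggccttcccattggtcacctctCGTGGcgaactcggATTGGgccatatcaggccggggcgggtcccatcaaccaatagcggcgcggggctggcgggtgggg
SDF2L1: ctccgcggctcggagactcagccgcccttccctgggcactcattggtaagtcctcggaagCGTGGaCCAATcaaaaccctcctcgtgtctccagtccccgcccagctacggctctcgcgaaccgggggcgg
HYOU1: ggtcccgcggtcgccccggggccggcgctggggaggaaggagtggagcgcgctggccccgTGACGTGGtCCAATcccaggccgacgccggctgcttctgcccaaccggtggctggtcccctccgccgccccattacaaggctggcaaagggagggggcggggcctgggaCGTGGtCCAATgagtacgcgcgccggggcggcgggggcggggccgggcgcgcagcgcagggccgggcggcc
ATF3: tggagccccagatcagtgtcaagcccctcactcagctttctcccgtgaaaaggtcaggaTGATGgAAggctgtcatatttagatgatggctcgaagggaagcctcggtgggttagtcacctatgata
ASNS: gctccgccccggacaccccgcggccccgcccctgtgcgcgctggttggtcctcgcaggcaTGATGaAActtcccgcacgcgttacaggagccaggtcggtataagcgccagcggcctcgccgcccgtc
AARS1: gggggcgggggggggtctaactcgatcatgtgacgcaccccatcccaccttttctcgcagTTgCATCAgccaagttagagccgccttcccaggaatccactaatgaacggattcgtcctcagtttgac

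Across the 31 genes, no member passed the test between the groups. In limma, with p-values adjusted over 16098 named probe sets, 0 of 31 members were called at 0.05, where 0.0559% of named probe sets were called (9 probe sets). The smallest adjusted p of a member was 0.407. In bulk RNA, a change in every cell and a change in the number of cells that express a gene cannot be told apart. At an unadjusted p below 0.05, 2 of 31 members passed, DDIT4 and EIF2AK3, both higher in the labelled arrays, a share of 6.45% against 9.86% of all genes (5.75% of all genes higher and 4.11% lower). The median log2 change of the 31 members was 0.06, against 0.0076 over all genes, with 21 members above 0 (67.7%, against 52.2% of all genes). The groups did not overlap at 7 members, where 17.5% of all genes were so separated, 6 higher (19.4%, against 10.3% of all genes) and 1 lower (3.23%, against 7.24%). When each array was left out in turn, the sign of the log2 change turned at 12 of the 31 members, among which PCK2 had the largest change with all arrays, at 0.10. With 3 against 3 arrays an exact two-sided permutation test cannot give a p below 0.1.

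**Figure D1:**
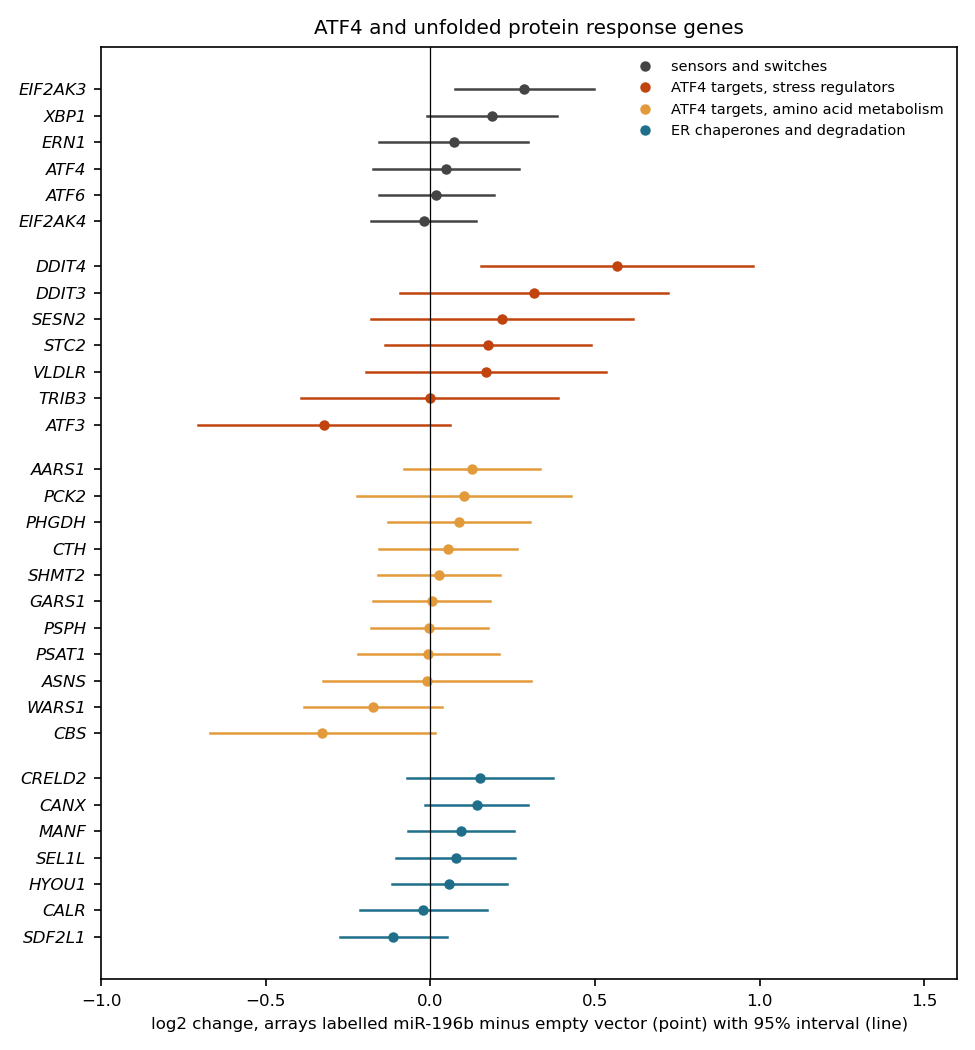
The log2 change of each of the 31 measured genes (point, x axis, arrays labelled miR-196b minus empty vector) with its 95% interval from limma (line), grouped by role. The intervals of DDIT4 and EIF2AK3 lie above 0, those of the other 29 genes include 0, and no gene passed the test adjusted over all named probe sets.

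Among the sensors, EIF2AK3, which encodes the PERK kinase, had the smallest p. Its signal was 7.19, 7.12 and 7.12 in the arrays labelled miR-196b, against 6.73, 7.001 and 6.84 in the empty-vector arrays. All 3 labelled arrays lay above all 3 empty-vector arrays. This gave a log2 change of 0.29 (SE 0.09, 95% interval 0.07 to 0.50), or 1.22-fold, which did not pass (limma adjusted p = 0.415).

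XBP1, the transcription factor gene whose mRNA IRE1 splices, was at 8.17, 8.36 and 8.22 in the labelled arrays, against 8.13, 7.99 and 8.06 in the empty-vector arrays. The groups did not overlap, with 0.036 between labelled replicate 1 and empty-vector replicate 1. The log2 change of 0.19 did not pass (95% interval -0.0099 to 0.38, limma adjusted p = 0.510). The spliced and unspliced forms of this mRNA share one probe set here and were not told apart.

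ATF4, the factor of the response itself, stood at 9.58, 9.86 and 9.85 in the labelled arrays, against 9.71, 9.71 and 9.73 in the empty-vector arrays. Labelled replicate 1 was the lowest and labelled replicates 2 and 3 the highest of the 6, around a narrow empty-vector group (SD 0.159 in labelled, 0.0131 in empty vector, n = 3 each). The difference of 0.05 (log2, 95% interval -0.17 to 0.27) did not pass (limma adjusted p = 0.891), and it was -0.0017 without labelled replicate 2.

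ERN1, which encodes IRE1, was at 6.68, 6.74 and 6.57 in the labelled arrays, against 6.48, 6.75 and 6.54 in the empty-vector arrays, and the groups overlapped. Its log2 change of 0.07 (limma adjusted p = 0.833) lay beside 0.02 for ATF6 and -0.02 for EIF2AK4, the GCN2 kinase gene. The 6 sensors and switches had a median log2 change of 0.06, with 5 above 0 and 1 below. That median was 0.022 without labelled replicate 2 and 0.10 without labelled replicate 1. Their 95% intervals reached at most 0.50 from 0.

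DDIT4 had the largest log2 change of the 31 genes. It encodes REDD1, an inhibitor of mTORC1 that is induced by ATF4 and also by low oxygen and glucocorticoids. The signal was 9.21, 8.96 and 9.55 in the arrays labelled miR-196b, against 8.93, 8.65 and 8.45 in the empty-vector arrays. The groups did not overlap, with labelled replicate 2 standing just above empty-vector replicate 1. This gave a log2 change of 0.57 (SE 0.18, 95% interval 0.15 to 0.98), or 1.48-fold, which did not pass (limma adjusted p = 0.407). Without labelled replicate 3 the change was 0.41.

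**Figure D2:**
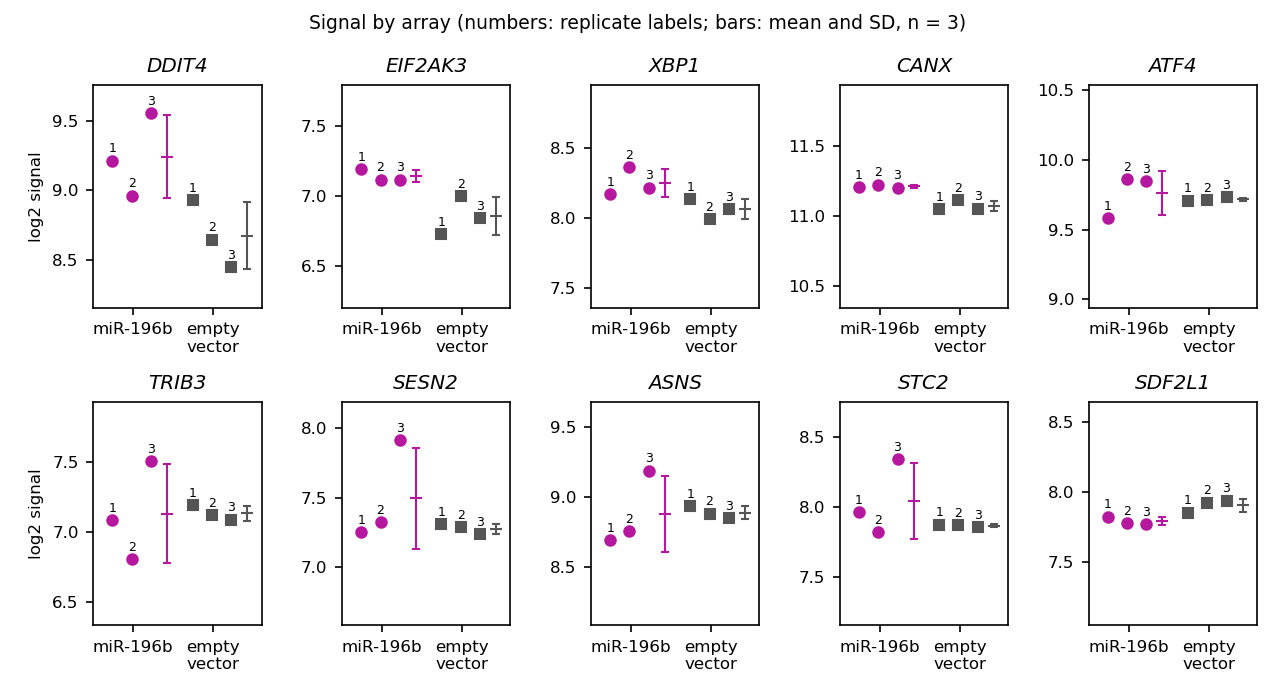
Log2 signal (y axis, a window of the same height for each gene) of 10 members in the 3 arrays labelled miR-196b (circles) and the 3 empty-vector arrays (squares), numbered by replicate label, with mean and SD (bars). Labelled replicate 3 is the highest of the 6 arrays for DDIT4, TRIB3, SESN2, ASNS and STC2, while CANX and XBP1 are higher in all 3 labelled arrays and SDF2L1 lower.

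The other stress regulators had differences of both signs. DDIT3, which encodes CHOP, a factor that promotes cell death under prolonged stress, was at 4.46, 4.19 and 4.85 in the labelled arrays, against 4.38, 4.02 and 4.16 in the empty-vector arrays. The groups overlapped and the probe set was dim, with a brightness percentile of 50.1 among all probe sets (log2 change 0.31, 95% interval -0.09 to 0.72, limma adjusted p = 0.587). The DDIT3 change was 0.14 without labelled replicate 3 and 0.47 without labelled replicate 2. ATF3, a repressor induced early in many kinds of stress, was at 5.78, 5.59 and 6.15 in the labelled arrays, against 6.20, 5.95 and 6.34 in the empty-vector arrays. Its log2 change had the opposite sign, at -0.32 (95% interval -0.71 to 0.06, limma adjusted p = 0.559), and the groups overlapped. STC2, a secreted glycoprotein induced through PERK, was at 7.96, 7.82 and 8.34 in the labelled arrays, against 7.87, 7.87 and 7.85 in the empty-vector arrays. Its change of 0.18 (limma adjusted p = 0.686) was 0.025 without labelled replicate 3. SESN2, TRIB3 and VLDLR had log2 changes of 0.22, -0.0024 and 0.17, each with overlapping groups (limma adjusted p = 0.695 to 0.997). Without labelled replicate 3 the SESN2 change was 0.010 and that of TRIB3 -0.19, and without labelled replicate 2 that of VLDLR was 0.050. Of the 7 stress regulators 5 had a log2 change above 0 and 2 below, with a median of 0.18.

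Genes of amino acid metabolism had a median log2 change of 0.0042, with 6 of 11 above 0 and 5 below. CBS, which makes cystathionine from homocysteine and serine, had the smallest p of them. It was at 4.46, 5.03 and 4.81 in the labelled arrays, against 5.07, 5.01 and 5.20 in the empty-vector arrays, so the groups overlapped (log2 change -0.33, limma adjusted p = 0.507). A near-identical copy of CBS exists in the human reference, so its value is uncertain. WARS1, the tryptophan tRNA synthetase, which is also induced by interferon gamma, was at 6.88, 7.05 and 7.13 in the labelled arrays, against 7.25, 7.12 and 7.21 in the empty-vector arrays. Its log2 change was -0.17 (limma adjusted p = 0.566), and -0.05 at its other, dimmer probe set. The groups overlapped for this gene too, with labelled replicate 3 just above empty-vector replicate 2.

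AARS1, the alanine tRNA synthetase, was at 10.72, 10.86 and 10.99 in the labelled arrays, against 10.70, 10.73 and 10.75 in the empty-vector arrays (log2 change 0.13, limma adjusted p = 0.660). PHGDH, the first enzyme of serine synthesis, was at 8.76, 8.78 and 9.02 in the labelled arrays, against 8.79, 8.77 and 8.73 in the empty-vector arrays (log2 change 0.09, limma adjusted p = 0.777). For both genes the groups overlapped and labelled replicate 3 was the highest array. The other enzymes of serine and one-carbon metabolism, PSAT1, PSPH and SHMT2, had changes of -0.0065, -0.0026 and 0.025. ASNS, asparagine synthetase, had -0.01, CTH, which releases cysteine, 0.05, PCK2, the mitochondrial PEP carboxykinase, 0.10, and GARS1, the glycine tRNA synthetase, 0.0042. Without labelled replicate 3 the change was -0.06 for PCK2, -0.04 for GARS1, -0.0017 for SHMT2, -0.17 for ASNS and 0.0029 for PHGDH. The 95% intervals of the 11 genes, not adjusted for the number of probe sets tested, had a median half-width of 0.211.

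The ATF4 targets varied together among the 3 labelled arrays. This was seen in the values and is given as a description, with no test. Labelled replicate 3 had the highest signal of its group at 16 of 18 ATF4 targets (88.9%), where the same array was highest of its group at 32.8% of all genes. It was highest of all 6 arrays at 12 of 18 (66.7%), against 19.2% of all genes. The 2 exceptions within the group were VLDLR, a lipoprotein receptor whose probe set was dim, and CBS.

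TRIB3, a pseudokinase that dampens ATF4 and CHOP, shows the pattern. It was at 7.09, 6.81 and 7.51 in the labelled arrays, against 7.19, 7.12 and 7.09 in the empty-vector arrays, and its log2 change between groups was -0.0024. Labelled replicate 3 was the highest and labelled replicate 2 the lowest of the 6. SESN2, a leucine sensor upstream of mTORC1, was at 7.25, 7.33 and 7.91 in the labelled arrays, against 7.31, 7.29 and 7.24 in the empty-vector arrays. ASNS was at 8.69, 8.76 and 9.19 in the labelled arrays, against 8.94, 8.88 and 8.85 in the empty-vector arrays. In ASNS, replicates 1 and 2 of the labelled group lay below all 3 empty-vector arrays and replicate 3 above them. In SESN2, replicates 1 and 2 lay among or just above the empty-vector arrays and replicate 3 well above them. Set against the mean of labelled replicates 1 and 2, replicate 3 was higher by 0.62 in SESN2, 0.56 in TRIB3, 0.52 in DDIT3, 0.48 in PCK2 and 0.47 in ASNS and ATF3. The same difference was 0.26 for PSAT1, 0.25 for PHGDH, 0.08 for PSPH and SHMT2 and 0.13 for ATF4 itself.

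**Figure D3:**
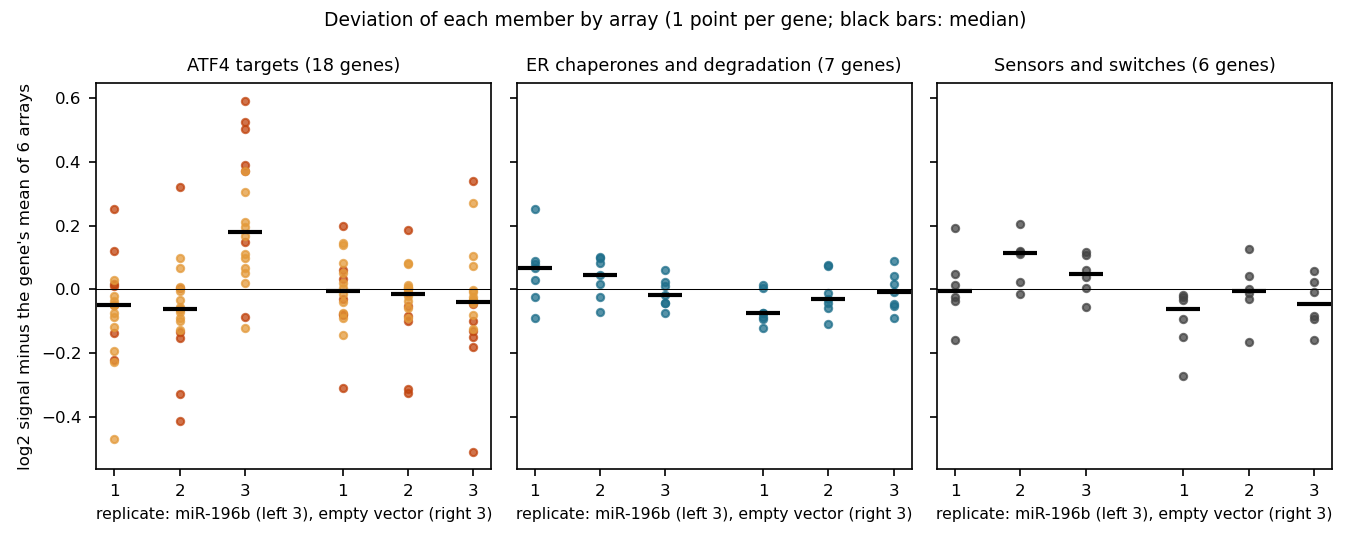
Log2 signal of each member minus its own mean over the 6 arrays (y axis) by array, for ATF4 targets (stress regulators dark, amino acid metabolism light), ER chaperone and degradation genes, and sensors and switches; points are genes and black bars are medians. The ATF4 targets have a median of 0.18 in labelled replicate 3 and between -0.06 and -0.0049 in the other 5 arrays, and the ER genes have -0.016 in that array.

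The median within-group SD of the 18 ATF4 targets was 0.242 in the labelled arrays and 0.0665 in the empty-vector arrays, against 0.117 and 0.108 over all genes. The empty-vector arrays also had a leading array, since replicate 1 was highest of its group at 11 of 18 ATF4 targets (61.1%, against 30.9% of all genes), with a median deviation from its group mean of 0.026, against 0.169 for labelled replicate 3 within its own group. The median log2 change of the ATF4 targets was 0.04 with all arrays, with 11 of 18 above 0. Without labelled replicate 3 it was -0.015 with 8 of 18 above 0, and without labelled replicate 1 it was 0.07. No batch is given in the labels, so none was tested.

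Among ER chaperone and degradation genes, labelled replicate 3 was highest of its group at 0 of the 7, and the difference between it and the mean of replicates 1 and 2 ranged from -0.18 (CRELD2) to -0.0086 (HYOU1). CANX, calnexin, a membrane chaperone for glycoproteins, was at 11.21, 11.23 and 11.20 in the arrays labelled miR-196b, against 11.05, 11.11 and 11.05 in the empty-vector arrays. The groups did not overlap, and the spread within each was small (SD 0.0114 in labelled and 0.0341 in empty vector, n = 3 each). The difference was 0.14 (log2, 95% interval -0.02 to 0.30), or 1.10-fold (limma adjusted p = 0.529).

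CRELD2, a secreted ER stress protein whose promoter window with an ERSE is shown above, was at 6.13, 5.89 and 5.83 in the labelled arrays, against 5.80, 5.77 and 5.83 in the empty-vector arrays. Its log2 change of 0.15 (limma adjusted p = 0.631) was 0.06 without labelled replicate 1, the highest array. MANF, an ER-resident factor that is secreted under calcium depletion, was at 6.67, 6.63 and 6.597 in the labelled arrays, against 6.51, 6.53 and 6.58 in the empty-vector arrays (log2 change 0.09, limma adjusted p = 0.675). Neither gene had overlapping groups, though the gap between them was 0.0032 for CRELD2 and 0.0197 for MANF.

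SDF2L1, an ER protein of the chaperone complex around BiP, was the 1 member lower in all labelled arrays. It was at 7.82, 7.78 and 7.77 in the arrays labelled miR-196b, against 7.85, 7.92 and 7.94 in the empty-vector arrays (log2 change -0.11, 95% interval -0.28 to 0.05, limma adjusted p = 0.622). The remaining 3 genes had overlapping groups. SEL1L, the adaptor of the HRD1 ubiquitin ligase, had a log2 change of 0.08, HYOU1, an ER chaperone of the HSP70 family, 0.06, and CALR, calreticulin, -0.02. A further, dimmer probe set of HYOU1 had -0.08 (limma adjusted p = 0.873). The list had a median of 0.08, with 5 of 7 above 0, and its 95% intervals reached at most 0.37 from 0. Its groups did not overlap at 3 genes higher (42.9%, against 10.3% of all genes) and 1 lower (14.3%, against 7.24%). Of the 6 members with an ERSE or ERSE-II, XBP1, CANX, CRELD2 and HYOU1 had changes above 0 and CALR and SDF2L1 below.

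**Figure D4:**
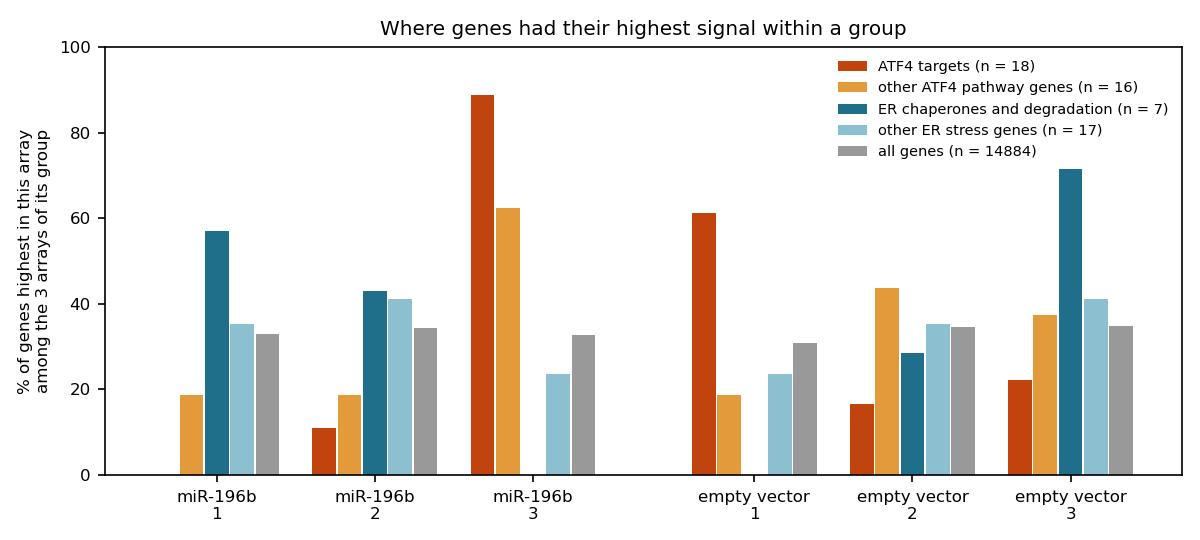
Share of genes (y axis, percent) that had their highest signal in each array among the 3 arrays of its group, for ATF4 targets, other ATF4 pathway genes, ER chaperone and degradation genes, other ER stress genes and all genes. In labelled replicate 3 the share is 88.9% for ATF4 targets, 62.5% for other ATF4 pathway genes, 0% for ER chaperone and degradation genes, 23.5% for other ER stress genes and 32.8% for all genes.

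Of 30 further genes of the ATF4 pathway, 16 were measured, and 0 passed the test in either direction (limma, 0 higher and 1 lower at an unadjusted p below 0.05, or 6.25% of the list, against 9.86% of all genes, 4.11% lower). That gene was ATF5, a factor translated under stress much as ATF4 is. It was at 6.82, 6.95 and 6.93 in the labelled arrays, against 7.10, 7.34 and 7.29 in the empty-vector arrays, with no overlap (log2 change -0.34, SE 0.09, limma adjusted p = 0.360). The next by p were JDP2, a repressor of the AP-1 family (0.17), NARS1, the asparagine tRNA synthetase (-0.07), and GDF15, a stress-induced secreted factor (0.13), whose groups overlapped. The GDF15 change was -0.03 without labelled replicate 3. The list had 4 genes above 0 and 12 below, with a median of -0.017. The groups did not overlap at 0 genes higher (against 10.3% of all genes) and 1 lower (6.25%, against 7.24%). Labelled replicate 3 was highest of its group at 10 of the 16 (62.5%), against 32.8% of all genes. GDF15 stood at 9.86, 9.80 and 10.32 in the labelled arrays, against 9.97, 9.77 and 9.84 in the empty-vector arrays.

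Of 30 further ER stress genes, 17 were measured and 0 passed (limma, 1 higher and 0 lower at an unadjusted p below 0.05, or 5.88% of the list, against 9.86% of all genes, 5.75% higher). CREB3L2, a membrane-bound factor of the ATF6 type, was at 8.002, 7.95 and 7.97 in the labelled arrays, against 7.63, 7.65 and 7.71 in the empty-vector arrays. The groups did not overlap (log2 change 0.31, 95% interval 0.15 to 0.47, 1.24-fold, limma adjusted p = 0.331). ERO1A, the oxidase that recharges protein disulfide isomerase, had 0.12, UGGT1, the glucosyltransferase that returns misfolded glycoproteins to calnexin, 0.11, and SERP1, which stabilises membrane proteins at the translocon, -0.21, with -0.30 at its other probe set. None of these 3 passed. The groups did not overlap at 4 genes higher (23.5%, against 10.3% of all genes) and 1 lower (5.88%, against 7.24%) of this list, whose median log2 change was 0.03. Labelled replicate 3 was highest of its group at 4 of the 17 (23.5%), against 32.8% of all genes.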

How the data were processed

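Expression was measured on 6 arrays, 3 labelled miR-196b and 3 empty vector. The deposited values are log2 signals, 1 per probe set and array. Per the submitters' processing notes, the tools were RMA and Partek 6.6, in an order not stated. RMA evens out overall level between arrays, so a shift of all genes would not be seen, and its output is in log2, which set the base used here. Array medians ran from 4.34 to 4.37. The genome build of the array design is not given in the sources used here. Of 53617 probe sets, 16098 had 1 gene symbol in the platform annotation (14884 genes). The other 37519, with no symbol or more than 1, were not counted as named, and these kinds were not told apart.

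The deposited values were fitted without a filter in R 4.3.3 with limma 3.58.1 (lmFit, eBayes), with Benjamini-Hochberg adjustment over all named probe sets. The fit had 4 residual and 3.23 prior degrees of freedom, and was tested on simulated data. Members, role lists and further pathway lists were chosen with earlier results of these data known. Values per array are given for ATF4, XBP1, DDIT3 and the 4 members of each role list with the smallest p, and from the further lists the 4 genes with the smallest p are named; TRIB3, SESN2 and ASNS were added after their values were seen. No set test was run. Promoters and mature microRNAs came from RefSeq tables; 29 of 31 members matched a promoter.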

Additional observations from a re-analysis of the deposited data

How the results depend on the processing

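The 31 members gave 0 calls in limma under all 13 alternatives: a filter on dim probe sets, a trended and robust variance prior, median centring, a repeated quantile normalization, all probe sets of the array, the replicate block, an average over the probe sets of each gene, and each of the 6 arrays left out. Of 401 refits of the 31 members, 375 kept direction and side of the threshold, and the smallest adjusted p was 0.141 (DDIT4, trended prior). The other 26 turned the sign of the change, at 13 members. With an array left out, the log2 change ran from -0.0017 to 0.14 for ATF4, -0.024 to 0.044 for ATF6, -0.034 to 0.0041 for EIF2AK4, -0.19 to 0.16 for TRIB3, -0.17 to 0.084 for ASNS, -0.092 to 0.037 for PSAT1, -0.040 to 0.033 for PSPH, -0.013 to 0.074 for SHMT2, -0.0027 to 0.11 for CTH, -0.056 to 0.19 for PCK2, -0.044 to 0.041 for GARS1 (older symbol GARS) and -0.076 to 0.0175 for CALR. Median centring gave 0.0065 for TRIB3, 0.0024 for PSAT1 and 0.0063 for PSPH, repeated quantile normalization gave 0.023 for PSAT1, and the average over probe sets gave -0.012 for HYOU1. Of 104 refits of the 8 named genes of the further lists, 103 kept both, and GDF15 ran from -0.029 to 0.23 with an array left out. The number of named probe sets called, 9, was 22 without the dimmest 40%, 91 with the trended prior, 2 with all probe sets, 1 with the replicate block and 2 to 3 with an array left out; the cause was not tested. With an array left out the median log2 change of ER chaperone and degradation genes was 0.035 (without empty-vector replicate 1) to 0.10, that of the ATF4 targets -0.015 (without labelled replicate 3) to 0.07, and that of the sensors and switches 0.022 to 0.10. Without the dimmest 40% the median of the ATF4 targets was 0.015. The replicate numbers were not treated as pairs: the deviations of same-numbered arrays correlated at 0.030, 0.037 and 0.0085, and under the replicate block 0 members were called. DDIT3 and VLDLR, the dimmest members, fell out with the filter.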
